A study of Mus musculus with 2 samples.

Results

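The genes of the cytosolic ribosomal proteins were described in single medulloblastoma cells of the mouse. They were taken by name, as symbols that start with Rpl or Rps and a digit or with Rplp, leaving out copies named -ps and the Rps6k kinases. This gave 86 of 19714 listed genes in a library of postnatal days 24 to 30 (P24-30) and 90 of 24858 in a library of postnatal day 12 (P12), with 84 in both. Rpl39l and Rps4y2 were listed at P24-30 alone, and Rpl37rt, Rpl3l, Rpl6l, Rps12l1, Rps27rt and Rps4l at P12 alone. The name rule takes in Rps19bp1 and Rpl7l1, which are not core subunits, and leaves out subunit genes with other names, such as Rpsa, Fau and Rack1. It also takes in symbols annotated as processed or transcribed processed pseudogenes. These are Rps3a2 and Rps3a3 at both ages, and Rpl37rt, Rpl6l, Rps12l1 and Rps4l at P12, and they count as members throughout.

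Tumour cells of both ages had the genotype hGFAPcre;Ptchc/c, in which a GFAP promoter drives Cre recombinase against a conditional Ptch allele, and no library without it was analysed here. Drop-seq isolates cells in droplets with barcoded beads and counts 3′ ends of messenger RNA as molecular barcodes (UMIs). No label says whether barcodes were collapsed in the P12 counts, which are called UMIs on that assumption. There was 1 library per age, and how many animals were used is not stated in the labels. Column names at P24-30 carry 16 tags, G1 to G16, which the labels do not explain, and P12 cells were classed by clustering without any ribosomal gene. No test was possible with 1 library per age, so values are pooled UMIs with exact 95% intervals that cover counting error only.

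Each ribosome holds a small subunit, which decodes the messenger RNA, and a large subunit, which joins the amino acids, and most of their proteins are present in 1 copy per ribosome. Ribosomal protein messenger RNAs usually begin with a run of pyrimidines, the terminal oligopyrimidine tract, through which mTOR signalling controls their translation together. Granule neuron progenitors, from which Sonic hedgehog medulloblastoma arises, grow and divide under signals that also raise ribosome production, and this production slows when progenitors leave the cell cycle. Some subunits have paralogs, such as Rpl22l1 for Rpl22 and Rps27l for Rps27, and one protein of such a pair can take the place of the other in the ribosome.

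The start sites of members on which the results turn are shown because members share the pyrimidine run but not in every promoter. The sequences are RefSeq start regions on GRCm38.p6, 30 bases before to 30 bases after the annotated start on the gene strand, with runs of at least 6 pyrimidines in capitals. Rpl22 and Rps27l have more than 1 listed start, and the first is shown.
Rpl22l1, chr3:28805478-28805537, plus strand: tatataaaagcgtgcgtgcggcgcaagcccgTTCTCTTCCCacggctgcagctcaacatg
Rpl22, chr4:152325696-152325755, plus strand: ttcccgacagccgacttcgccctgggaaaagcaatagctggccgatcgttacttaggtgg
Rps27l, chr9:66946056-66946115, plus strand: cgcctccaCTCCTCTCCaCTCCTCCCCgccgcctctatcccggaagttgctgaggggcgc
Rps27, chr3:90213619-90213678, minus strand: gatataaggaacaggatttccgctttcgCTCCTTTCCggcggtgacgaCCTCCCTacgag
Rps26, chr10:128626477-128626536, minus strand: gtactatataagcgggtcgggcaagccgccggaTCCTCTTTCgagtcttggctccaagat
Rps9, chr7:3704011-3704070, plus strand: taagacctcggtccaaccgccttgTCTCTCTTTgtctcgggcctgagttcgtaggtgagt
Rpl41, chr10:128549139-128549198, minus strand: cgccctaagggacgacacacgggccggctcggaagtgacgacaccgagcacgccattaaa
Rpl10, chrX:74270786-74270845, plus strand: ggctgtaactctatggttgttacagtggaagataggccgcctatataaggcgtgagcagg

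A pyrimidine run of at least 6 bases lay within 20 bases of the start in 44 of the 66 members with a listed promoter (66.7%), against 41.2% of 27025 genes. In the windows shown, Rpl22l1 has a run of 10 bases just after the start and Rpl22 has none. The letters CTTTCC, searched on the gene strand over 300 bases, occurred in 39.4% of member promoters and 16.01% of all. CCGGAAG, searched on both strands, occurred in 37.9% and 9.93%, and the TATA-type letters TATAAA on the gene strand in 9.09% and 9.77%. The shares say only how often these letters are present.

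After cells with under 500 UMIs or over 20% mitochondrial UMIs were set aside, 4796 P24-30 cells (median 2193.5 UMIs) and 5723 P12 cells (median 1805.0 UMIs) remained, and the libraries shared 0 barcodes. Members held 12.4% of UMIs at P24-30, with a per-cell median of 12.3% and quartiles of 9.99% and 14.8%. At P12 they held 3.77%, with a per-cell median of 3.75% and quartiles of 2.96% and 4.58%. The ages are not compared, because reads of near-identical gene copies were counted differently. At P24-30 the gene Rps26 had 53470 UMIs and its copy Rps26-ps1 had 48926, with a correlation of 0.956 over cells, while at P12 they had 40330 and 8829 (0.568). Rps3a1 and Rps3a2 had 24341 and 21235 UMIs at P24-30 (correlation 0.910), against 7430 and 20 at P12.

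Levels of single members spanned a narrow range at P24-30 and a wide one at P12. Counts of 3′ ends are not divided by gene length, so each order holds for UMIs. At P24-30, 80 members had at least 1000 UMIs, and the 8 with the most held 19.5% of ribosomal UMIs. Among these were Rps26, the highest at 4410 CPM (UMIs scaled to the group's total), Rpl41, Rps9, Rps29, Rps24 and Rplp1. Rps26 lies where messenger RNA leaves the small subunit, Rpl41 is a very short large-subunit peptide, and Rplp1 belongs to the acidic stalk that recruits translation factors. At P12 only 46 members had at least 1000 UMIs and the leading 8 held 45.5%. Rps26 at 3397 CPM led again, and Rps9, Rps3, Rpl32, Rpl22, Rpl4 and Rps14 (1737 CPM) were among the others.

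The members with few UMIs at P12 included genes whose 3′ ends other genes share. Over the last 300 bases of the annotated transcript (GENCODE vM21), 5 members at P24-30 and 7 at P12 had every 50-base window also in another gene. Among them were Rps27, Rpl10, Rpl12, Rpl9 and Rpl36a, and the median level of these members was 965 CPM at P24-30 and 12.9 CPM at P12. Members with no shared window numbered 19 at P24-30, with a median of 1843 CPM, and 20 at P12, with a median of 126 CPM. Those with some windows shared numbered 61 at P24-30 (median 1463 CPM) and 63 at P12 (median 125 CPM), so at P12 these sets had like medians. Under 100 UMIs at P12 were 3 members with every window shared, 5 with some and 2 with none. Rpl14, without a shared window, still has a named copy, Rpl14-ps1, with 21483 UMIs at P12. The part of shared ends in the low P12 values was not tested. The files therefore give different pictures of which ribosomal genes are abundant.

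**Figure D1:**
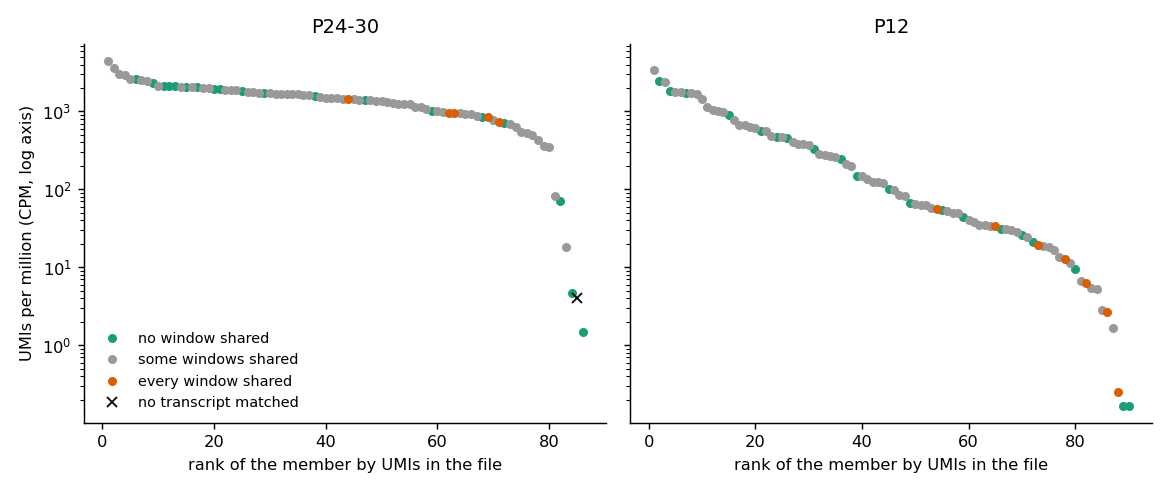
Level of each ribosomal protein gene in CPM (log axis) against its rank by UMIs, at P24-30 (left) and P12 (right), coloured by how much of the 3′ end other genes share. Levels fall slowly over the first 80 ranks at P24-30 and steadily over all ranks at P12.

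At P24-30 the ribosomal share was highest in G7, G15, G5 and G6, whose summed G2 and M phase markers lay between 811 and 4076 CPM, and lowest in a group of shallow cells. G7 had the highest share, at 14.6% of UMIs (interval 14.5 to 14.7, 334 cells). G15 with 14.3%, and G5 and G6 with 14.1% each, came next, and the intervals of G15 and G5 overlap, as do those of G5 and G6. G3, with the highest summed S phase markers (4565 CPM), had 13.6%, G4 had 13.4% and G14 had 12.2%. The tags with the most G2 and M phase RNA, G16 (23969 CPM) and G1 (18780 CPM), had 11.8% and 11.05%. G2 had 11.7%, which its interval does not separate from the 11.6% of G8.

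Neuron-marked tags lay beside the mitotic ones in this order. G12, G13 and G11 had 11.3%, 11.1% and 10.8%, with summed neuron markers of 15301, 12298 and 14494 CPM. The intervals of G12 and G13 overlap, as do those of G13 and G1. The spread between cells within these tags was wide, with quartiles of 6.80% and 13.4% in G11, compared with 9.19% and 12.4% in G1.

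G9 and G10 were lowest. G9 had 7.87% in the 11 cells kept, after 39 were removed for mitochondrial UMIs, and summed astrocyte and Bergmann glia markers of 32633 CPM. G10 had 3.88% (3.74 to 4.03) in 77 cells with a median of 774 UMIs. Malat1, a nuclear RNA, was at 17610 CPM in G10 and at 4190 to 11334 CPM in the tags other than G9 (17005 CPM) and G10. In G10, 81 of 83 members were lower than in the other tags past 1.5-fold, where 38.7% of 9302 genes were, with a median member ratio of 0.309. Depth and nuclear RNA move with this value, and their part in it was not tested.

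**Figure D2:**
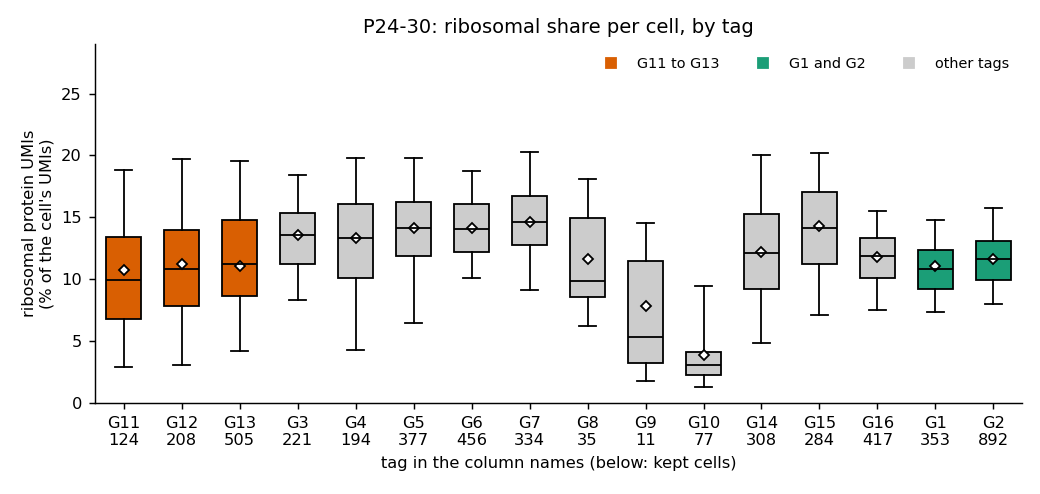
Ribosomal share of each P24-30 cell, in percent of the cell's UMIs, by tag (number of kept cells below each tag). Boxes are quartiles with the median, whiskers the 5th and 95th percentiles, and diamonds the pooled shares, which run between 3.88% in G10 and 14.6% in G7.

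Members varied together across tags, and the makeup of the ribosomal protein UMIs differed little. In each tag except G9 (1.28), large-subunit genes held 1.09 to 1.19 UMIs for each small-subunit UMI. Within ribosomal UMIs, the highest over the lowest of the 13 tags with at least 100 cells was 1.19 for the median member with at least 20 UMIs in every tag. Rps3a1 varied least, at 1.05. Over 14 tags of at least 50 cells, the log2 level of 78 of 80 members correlated with the log2 ribosomal share above 0.9. The members are part of the share in this description. All of these members were lowest in G10, whose share is far below the others, so G10 weighs on each correlation. Correlations without G10 were not computed.

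The genes outside the name rule whose levels most resembled the ribosomal share were copies or copy-like genes. They were Gm7536 (correlation 0.997 over 14 tags), Rpl23a-ps3, Rpl27-ps3, Gm10260, Rps26-ps1, Gm2000, Rps10-ps1 and Gm9493 (0.995). The median of all genes with at least 1000 UMIs outside the rule was 0.510. The genes named here were also all lowest in G10, so the same limit holds for them, and these points share 1 library.

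Rpl22l1 varied most among members within ribosomal UMIs, at 2.23 times between its highest and lowest tag. It made up 0.647% of ribosomal UMIs in G16, 0.633% in G1 and 0.604% in G2, the tags rich in G2 and M phase RNA. It made up 0.521% in G3, and 0.407% to 0.487% in G4, G5, G6, G7 and G15. The lowest values of the 13 tags were in the neuron-marked G11 (0.290%), G12 (0.318%) and G13 (0.392%) and in G14 (0.389%). Rps27l, a p53-induced paralog of Rps27, varied next most, at 1.63 times, between 0.207% in G14 and 0.337% in G2. Then came Rps28 (1.48), Rps27 (1.43), Rplp1 (1.42) and Rpl12 (1.41), with Rps28, Rps27 highest and Rplp1, Rpl12 lowest in G11.

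Set against its partner gene, Rpl22l1 was again lower in G11 to G13 than in G1, G2 and G16. There were 24.7 Rpl22l1 UMIs per 100 Rpl22 UMIs in G11 (interval 18.3 to 32.9), 24.4 in G12 and 30.0 in G13. In G1, G2 and G16 there were 44.7, 43.3 and 47.8 (44.4 to 51.5 in G16). The level of Rpl22 itself ran between 1267 CPM in G11 and 2131 CPM in G7 over tags of at least 100 cells, and Rpl22l1 between 313 CPM in G11 and 763 CPM in G16. Rpl22l1 was low in the microglia-marked G8 too, with 18.5 per 100 (11.8 to 28.0) on 27 UMIs. At P12, cells named neuron-like from their markers had 20.9 per 100 (18.0 to 24.3), microglia-like cells 23.9 (17.8 to 31.7) and cycling-like cells 34.5 (33.0 to 36.1). Most other P12 groups also lay below the cycling-like cells, between 26.6 in cluster 3 and 33.9 in cluster 2. Only cluster 5 (36.2) and the oligodendrocyte lineage-like cells (40.4) lay above. The cycling-like cells were not uniform. Their cluster led by Cdc20 had 36.4 (34.5 to 38.5) and the one led by Slfn9 had 30.7 (28.2 to 33.3).

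**Figure D3:**
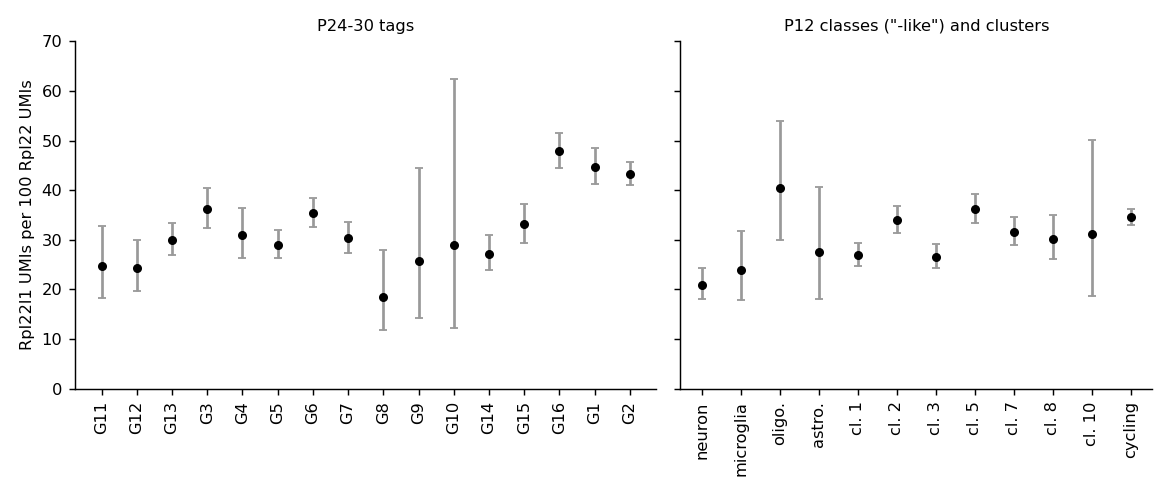
Rpl22l1 UMIs per 100 Rpl22 UMIs in P24-30 tags (left) and P12 classes and unnamed clusters (right), with exact 95% intervals for counting error. The values of G11 to G13 lie between 24.4 and 30.0, below the 43.3 to 47.8 of G1, G2 and G16.

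The 3′ end of Rpl22l1 is not wholly its own. Of its 50-base windows 63.3% occur in other genes, most of them in the pseudogene Gm15421, which the P12 file lists. Gm15421 had 150 CPM in neuron-like and 420 CPM in cycling-like P12 cells, a ratio of 0.357 (0.297 to 0.426). Counting both genes together gave 0.382 (0.341 to 0.426) in neuron-like over cycling-like cells, and 0.466 (0.379 to 0.568) in microglia-like over cycling-like cells.

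G11 to G13 were then compared with G1 and G2, that is, neuron-marked with cycling-marked tags at P24-30. The summed neuron markers were 13227 CPM in G11 to G13 and 3531 CPM in G1 and G2, and those of G2 and M phase 663 and 12414 CPM. Summed choroid plexus markers were 17599 CPM in G13 but 422 CPM in G11 and 298 CPM in G12, and G1 and G2 had 93.5 and 94.7 CPM. The ribosomal share was 11.1% in 837 cells of G11 to G13 and 11.5% in 1245 cells of G1 and G2, a ratio of 0.968 (0.962 to 0.973). Without G13 it was 0.967. The median depth was 1629 UMIs in G11 to G13 and 2851 UMIs in G1 and G2, and with only cells of 1000 to 3000 UMIs the ratio turned to 1.05, with shares of 11.9% and 11.3%. No direction is therefore read from the pooled shares.

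Single members in that comparison stayed close to each other. Of 83 members with at least 100 UMIs in both groups together, 0 were higher past 1.5-fold, where 23% of 6717 genes were, and 1 was lower, where 16% of genes were. The median member ratio was 0.967 and the median of all genes 1.08. Rpl22l1 was the member past the fold, at 404 CPM in G11 to G13 and 704 CPM in G1 and G2, a ratio of 0.574 (0.525 to 0.627). It was 0.486 without G13 and 0.570 with cells thinned to 500 UMIs. Rps27l was next, at 259 and 384 CPM (0.675, 0.602 to 0.754), and its partner Rps27 went the other way, at 1511 and 1273 CPM (1.19, 1.13 to 1.25).

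Other members at the ends of this order differed less. The stalk gene Rplp1 had 1943 CPM in G11 to G13 and 2601 CPM in G1 and G2 (0.747, 0.717 to 0.778), and its stalk partners Rplp2 (0.924) and Rplp0 (0.955) were nearer to 1. Rpl41 (0.792), Rpl18 (0.812) and Rpl14 (0.823) followed. The highest was Rpl10, which joins the large subunit late in its assembly, at 1014 and 816 CPM (1.24, 1.17 to 1.32). Every 3′ window of Rpl10 and of Rps27 also occurs in other genes, and the part of those genes in their ratios was not tested. Rpl37 (1.18), Rpl36 (1.16) and Rpl38 (1.16) came after Rps27.

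Paralogs and similarly named genes did not form a group. Rpl36al, a paralog of Rpl36a, had 381 CPM in G11 to G13 and 430 CPM in G1 and G2 (0.885, 0.804 to 0.973). Rpl7l1 (0.943, 0.748 to 1.18) and Rps19bp1, whose protein binds Rps19 (1.01, 0.806 to 1.27), had intervals that hold 1. Rps3a2 (0.937) and Rps3a3 (0.954) followed Rps3a1 (0.9499), with which they share sequence. Rpl10l, Rpl39l and Rps4y2 had 18, 56 and 49 UMIs in the whole library and gave no ratio here.

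At P12, cells were clustered without ribosomal or mitochondrial genes and named from markers. Neuron-like cells (559 cells, 1 cluster led by Cntn2, Neurod1 and Stmn2) had summed neuron markers of 22424 CPM, against 3757 CPM in cycling-like cells. Microglia-like cells (86 cells, led by Apoe, Spp1 and C1qc) had microglia markers of 36401 CPM, against 29.5 CPM in cycling-like cells. Their astrocyte and Bergmann glia markers, a list that holds Apoe, summed to 41483 CPM, against 327 CPM in cycling-like cells. Cycling-like cells (1589 cells) were a cluster led by Cdc20, Cenpa and Aspm and another led by Slfn9, Ccne2 and Ung. Clusters 2 and 5, led by histone and S phase genes and globins, held 674 and 535 cells and stayed unnamed under thresholds set after the clusters had been seen. The comparisons of neuron-like and microglia-like cells share the cycling-like cells.

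Neuron-like P12 cells had a lower ribosomal share than cycling-like ones. Members held 2.59% of UMIs in neuron-like cells (2.56 to 2.62) and 3.73% in cycling-like cells (3.71 to 3.74), a ratio of 0.695 (0.685 to 0.705). The quartiles of the per-cell share were 1.85% and 3.05% in neuron-like cells and 3.09% and 4.34% in cycling-like cells, so the middle parts do not overlap. Median depth was 1450 UMIs in neuron-like and 2266 UMIs in cycling-like cells, and between 1000 and 2000 UMIs the shares were 2.47% (441 cells) and 3.69% (570 cells). Malat1 was at 23408 CPM in neuron-like cells and 14371 CPM in cycling-like cells, and without Malat1 and mitochondrial genes in the total the ratio was 0.709.

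Nearly all members took part in this difference at P12. Of 71 members with at least 100 UMIs, 69 were below 1. There were 29 lower past 1.5-fold, or 40.8%, where 23.2% of 6918 genes were, and 1 higher, where 19.3% of genes were. The median member ratio was 0.700 and that of all genes 0.975. Most members followed the summed share, with 68 of 71 within 1.5-fold of the ratio of the share itself.

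Rpl22l1 was again lowest, at 242 CPM in neuron-like and 606 CPM in cycling-like cells, a ratio of 0.399 (0.346 to 0.459). Rpl10a (0.469), Rpl3 (0.474), Rpl12 (0.476), Rps23 (0.503) and Rps18 (0.517) were next. Of these Rpl3, which shapes the peptidyl transferase centre, had 42.5 CPM in neuron-like and 89.7 CPM in cycling-like cells, and Rpl10a had 10 UMIs in neuron-like cells, so that its interval was wide (0.218 to 0.899). Rps27l had 216 and 379.6 CPM (0.569, 0.487 to 0.661). Rplp1 had 903 CPM in neuron-like and 1620 CPM in cycling-like cells (0.558), Rplp2 a ratio of 0.593 and Rplp0 one of 0.777.

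The abundant members were lower by smaller factors. Rps26 had 2216 CPM in neuron-like cells and 3352 CPM in cycling-like cells (0.661, 0.630 to 0.693). Rps9, Rpl32 and Rps3 had ratios of 0.740, 0.725 and 0.802, and Rpl22, Rpl4 and Rps14 had 0.658, 0.668 and 0.781. The 1 higher member was Rpl5, which carries 5S RNA into the large subunit, at 59.3 CPM in neuron-like and 39.5 CPM in cycling-like cells (1.503, 1.08 to 2.06). Rps19bp1 (1.13), Rpl36 (0.990), Rpl15 (0.919) and Rpl27 (0.909) had intervals that hold 1. Among paralogs and similarly named genes, Rpl36al (0.678), Rpl7l1 (0.649) and the pseudogene Rpl37rt (0.850) lay in the range of the other members. Rpl3l, Rpl10l and the pseudogene Rps12l1 had at most 3 UMIs in the library.

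**Figure D4:**
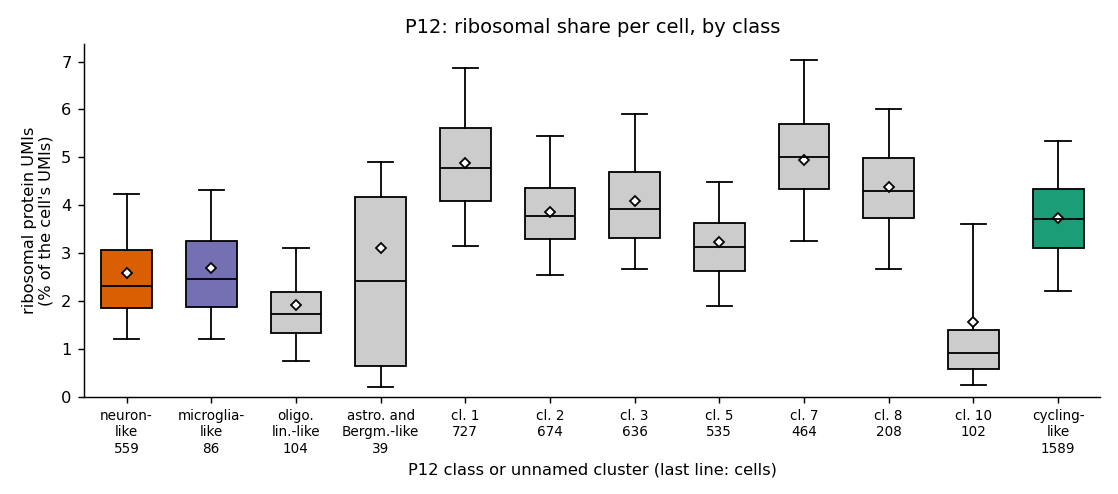
Ribosomal share of each P12 cell, in percent of the cell's UMIs, by class or unnamed cluster (number of cells on the last line). Boxes are quartiles with the median, whiskers the 5th and 95th percentiles, and diamonds pooled shares, which are 2.59% in neuron-like, 2.69% in microglia-like and 3.73% in cycling-like cells.

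Microglia-like P12 cells had 2.69% ribosomal UMIs (2.62 to 2.76), against 3.73% in cycling-like cells, a ratio of 0.722 (0.703 to 0.741). Of 70 members with at least 100 UMIs in both groups together, 31 were lower past 1.5-fold (44.3%), where 56.3% of 6424 genes were. There were 0 higher, where 13% of genes were. Cycling-like cells are far more numerous, so a member can pass this minimum through them alone. With a minimum of 20 UMIs, 38 of 84 members were lower and 4 higher, so the 0 rests on the minimum. The share of all genes was not computed there. At the minimum of 100 UMIs the median member ratio was 0.725, against 0.590 for all genes, and the members' count of lower genes lies below the background. Granule-lineage markers, which microglia should lack, were at 657 CPM in microglia-like and 5276 CPM in cycling-like cells. The part of such RNA, and of the astrocyte and Bergmann glia markers, in the ribosomal values was not tested.

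Rplp1 stood at the head of the microglia-like cells. It had 2360 CPM there and 1620 CPM in cycling-like cells (1.46, 1.33 to 1.60), and it had more UMIs there than any other member, where Rps26 led in cycling-like cells. Rps26 was at 1811 CPM in microglia-like and 3352 CPM in cycling-like cells (0.540, 0.487 to 0.598). In the microglia-marked tag G8 of the P24-30 library (35 cells, microglia markers 34366 CPM, astrocyte and Bergmann glia markers 50986 CPM) Rplp1 was at 4407 CPM, and in the other tags it lay between 873 CPM in G10 and 2920 CPM in G7. Rplp1 did not lead in G8, where it had 376 UMIs and Rps29 had 483. Other high ratios in microglia-like cells had wide intervals that hold 1, namely Rpl10a (1.38), Rpl7a (1.12), Rpl38 (1.07), Rpl37a (1.06) and Rpl35a (1.02).

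The lowest members in microglia-like cells rested on few UMIs. Rpl15 had 2 UMIs in microglia-like and 270 in cycling-like cells (0.143, 0.0171 to 0.520). Rps23 (0.264), Rpl35 (0.269) and Rps27a (0.271) also had 2 UMIs each. Rpl13a, with 18 UMIs in microglia-like cells, had a ratio of 0.363 (0.214 to 0.577). Rpl22l1 was at 291 CPM in microglia-like and 606 CPM in cycling-like cells (0.480, 0.367 to 0.618), while Rps27l had a ratio of 0.902 (0.704 to 1.14). Rps4l, annotated as a pseudogene and listed at P12 alone, had 7 UMIs in microglia-like and 17 in cycling-like cells, below the minimum of 100.

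**Figure D5:**
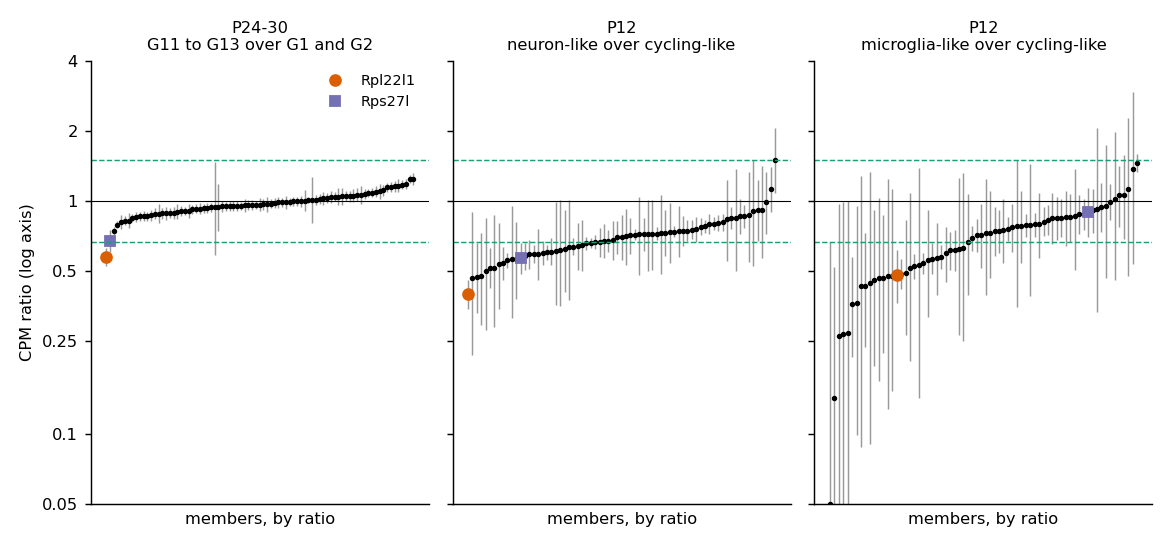
CPM ratio (log axis) of each member with at least 100 UMIs in both groups together, ordered by ratio, for G11 to G13 over G1 and G2 (left), neuron-like over cycling-like (middle) and microglia-like over cycling-like cells (right), with exact 95% intervals. Rpl22l1 is lowest in the left and middle panels, at 0.574 and 0.399, dashed lines mark 1.5-fold either way, and values below the axis are drawn at its lower edge.

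Unnamed and glial P12 groups spanned a wider range of ribosomal share than the 3 classes compared. The highest were cluster 7 (4.95%, 464 cells, led by Ttr, Enpp2 and 1500015O10Rik) and cluster 1 (4.89%, 727 cells, with the replication genes Ung, Mcm6 and Mcm4 and globin genes among its leading genes). Clusters 8, 3, 2 and 5 had 4.37%, 4.08%, 3.86% and 3.23%. Oligodendrocyte lineage-like cells had 1.91% (104 cells), and astrocyte and Bergmann glia-like cells 3.11% (39 cells) with quartiles of 0.629% and 4.17%. Cluster 10 was lowest, at 1.56% (1.48 to 1.64) in 102 cells with a median of 848 UMIs, Malat1 at 57420 CPM and 13.4% mitochondrial UMIs. Among the 23 members with enough UMIs in each of 11 clusters, Rpl22l1 varied most within ribosomal UMIs, at 1.93 times. Its lowest value was in the neuron-like cluster (0.934%) and its highest in cluster 9, the oligodendrocyte lineage-like cells (1.81%). These cells had 40.4 Rpl22l1 UMIs per 100 Rpl22 UMIs (29.9 to 53.9), and that interval holds the 34.5 of cycling-like cells.

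The other genes of translation gave a background to these values. Rpsa, a small-subunit protein gene outside the name rule, had 1391 CPM in G11 to G13 and 1719 CPM in G1 and G2 (0.810), and Fau, whose product is cleaved into a small-subunit protein and a ubiquitin-like one, had 1341 and 1313 CPM (1.02). At P12 Rpsa had 122 CPM in neuron-like and 200.02 CPM in cycling-like cells (0.610), and Fau had 34.7 and 32.6 CPM (1.06). In microglia-like cells Rpsa was at 113 CPM (0.563 of that in cycling-like cells) and Fau at 23.5 CPM (0.719).

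Ribosome assembly genes, which make and modify ribosomal RNA and build the subunits, had a lower summed level in neuron-marked cells of both files. In G11 to G13 they summed to 4512 CPM, against 6992 CPM in G1 and G2 (0.645), with a median ratio of 0.843. There 8 of 25 were lower past 1.5-fold, where 16% of all genes were, and 1 was higher, where 23% were, so most of the list lay within the fold. Nop56, of the particles that methylate ribosomal RNA, was lowest, at 258 CPM in G11 to G13 and 700.2 CPM in G1 and G2 (0.369), and Tsr1, of small-subunit assembly, was highest (1.58). In neuron-like P12 cells the sum was 4879 CPM, against 8628 CPM in cycling-like cells (0.566), with 15 of 25 lower, where 23.2% of all genes were, and 0 higher, where 19.3% were. Dkc1, the pseudouridine synthase of ribosomal RNA, was lowest (0.259) and Ubtf, a factor of RNA polymerase I, highest (1.39). In microglia-like cells 18 of 23 were lower, where 56.3% of all genes were, and 0 higher, where 13% were, with a sum ratio of 0.457, Polr1c lowest (0.204) and Rrp9 highest (1.21).

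Initiation factors, which bring the ribosome to the start codon, differed less as a sum. The sum ratio was 0.861 in G11 to G13 over G1 and G2 (5 of 32 lower, 1 higher) and 0.872 in neuron-like over cycling-like cells (6 of 30 lower, 0 higher). Eif4ebp1, which holds back cap-dependent initiation until mTOR phosphorylates its protein, was lowest in both, at 8.58 CPM in G11 to G13 and 55.1 CPM in G1 and G2 (0.156), and at 8.95 CPM in neuron-like and 72.8 CPM in cycling-like cells (0.123). The highest were Eif2a (1.55) at P24-30 and Eif3l (1.14) at P12. In microglia-like cells the ratio was 0.612 (18 of 30 lower, 0 higher), between Eif3e (0.268) and Eif4a2 (1.20). The 3 counts of lower genes lie close to the shares of all genes, which were 16%, 23.2% and 56.3% in the same order, and nothing is read from them about initiation factors. The counts of higher genes lie below the shares of all genes, which were 23%, 19.3% and 13%.

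Elongation factors and their partners had sum ratios of 0.876 in G11 to G13 over G1 and G2 (2 of 13 lower, 1 higher), 0.633 in neuron-like (4 of 13 lower, 0 higher) and 0.720 in microglia-like over cycling-like cells (6 of 13 lower, 0 higher). Set against the same 16%, 23.2% and 56.3% of all genes, the counts of lower genes do not set elongation factors apart. The counts of higher genes lie below the 23%, 19.3% and 13% of all genes, on a list of few genes. Eef2, which moves the ribosome along the messenger RNA, was highest in G11 to G13 (1.505) and in neuron-like cells (1.26), and Tpt1 in microglia-like cells (1.26). The lowest were the histone chaperone Nap1l1 (0.549) at P24-30, the exchange factor subunit Eef1d (0.383) in neuron-like cells and Hnrnpa1 (0.123) in microglia-like cells. Mitochondrial ribosomal proteins, which serve the separate ribosome of mitochondria, had sum ratios of 0.925 (6 of 75 lower, 3 higher), 0.838 (11 of 74 lower, 0 higher) and 0.703 (36 of 73 lower, 0 higher) in the same order. Each of these counts of lower genes, and each count of higher genes, is below the share of all genes. Their extremes were Mrpl51 (0.463) and Mrpl34 (1.76) at P24-30, Mrps27 (0.342) and Mrpl34 (1.36) in neuron-like cells, and Mrps6 (0.103) and Mrps2 (1.45) in microglia-like cells.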

How the data were processed

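Per the labels, both Drop-seq libraries come from dissociated tumours and were read at the 3′ end. The submitters' processing notes name CASAVA and mm10, and the aligner, the counter and the annotation were not stated in the sources used here. The P12 counts are whole numbers per gene and barcode as deposited. The P24-30 values as deposited are natural log values, ln(1 + 10000 × share of the cell's UMIs), from which UMIs per gene and cell were recovered (all whole within 0.001).

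The cell filter was 500 UMIs or more with mitochondrial genes at 20% or less. Doublets were not removed. UMIs were pooled per group and scaled to CPM. Shares have exact Clopper-Pearson 95% intervals and CPM ratios exact conditional ones. A member was called at 1.5-fold with at least 100 UMIs in both groups together. P12 cells were clustered with scanpy 1.11.5 (2000 variable genes, 30 components, 15 neighbours, Leiden resolution 1, seed 1), without members, copies or mitochondrial genes. A class needed at least 3 markers raised at log2 of 1 (pseudocount 20 CPM), a mean log2 of 0.5 and 50% of cells with at least 2 of the markers. The ratio and interval code was tested on simulated data.

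The members and lists were chosen with earlier results of these data known. Named members were, in each comparison, the 6 highest and 6 lowest ratios, in each file the 8 with the most UMIs, the paralogs, the 6 most variable within ribosomal UMIs, the 8 genes most like the share, and the extremes of each pathway list. A few genes that this rule names are not reported here. Alternatives changed the depth, cells, denominator, member set, classes, fold and minimum.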

Additional observations from a re-analysis of the deposited data

How the results depend on the processing

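No paired analysis was possible because there was 1 library per age. The P24-30 share ratio (G11 to G13 over G1 and G2) was 0.968. It was 0.990 as a mean of per-cell shares, 0.985 with cells thinned to 500 UMIs, 0.958 with no filter on cells, 0.988 without mitochondrial genes and Malat1, 0.974 without the 5 leading members and, chosen after seeing the data, 0.961 with G16 added to G1 and G2. It reversed to 1.05 in cells of 1000 to 3000 UMIs and to 1.03 without the 5% of cells with the most UMIs. The first setting removes shallow and deep cells, the second deep cells alone, and their part in the reversal was not tested. The P12 share ratios stayed below 1 in each of their 12 alternatives. In neuron-like over cycling-like cells these were 0.671 (per-cell mean), 0.670 (thinned), 0.673 (1000 to 3000 UMIs), 0.709 (denominator), 0.683 (without the deepest cells, and likewise without the leading members), 0.776 (classes from marker counts) and, chosen after seeing the data, 0.711 with clusters 2 and 5 added to the cycling-like cells and 0.684 with copies named -ps added. In microglia-like over cycling-like cells they were 0.693, 0.678 and 0.672 for the first 3 settings, 0.687 without the deepest cells, 0.769 without the leading members and 0.661 with classes from marker counts. The count of members past the fold at P24-30, 1 of 83, was 2 of 80 with thinned cells, 2 of 83 with no filter and 0 of 83 at a fold of 2. The neuron-like count, 30 of 71, was 27 of 46 with thinned cells and 4 of 71 at a fold of 2. It was 10 of 71 with classes from marker counts, where 758 cells lay 1 marker below the neuron minimum of 5. The microglia-like count, 31 of 70, was 18 of 42 with thinned cells, 18 of 70 at a fold of 2 and 42 of 84 at a minimum of 20 UMIs. Thinning left fewer members with enough UMIs, so its counts have smaller totals. Shares of all genes past the fold were not computed for these alternatives. The cause of the other shifts was not tested, beyond the stricter fold and the lower minimum. The ratio of Rpl22l1 ran between 0.486 and 0.585, 0.399 and 0.508, and 0.439 and 0.513 over the alternatives of the 3 comparisons. No filter on cells could be tried on P12 classes, since removed cells had no cluster. The intervals hold no spread between animals or cells.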

Other observations

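Within P24-30 tags the share varied with depth in shallow cells. In G13 it was 8.07% in 31 cells of 500 to 1000 UMIs, 11.9% in 312 cells of 1000 to 2000 UMIs and 12.6% in 156 cells of 2000 to 4000 UMIs. In G12 it was 7.73% in 29 cells, 11.8% in 140 cells and 10.9% in 38 cells of the same ranges. In G6 it was 14.2% in both of the ranges between 1000 and 4000 UMIs and 13.96% in 29 cells with more.

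The balance of the subunits differed between P12 groups. Large-subunit UMIs per small-subunit UMI were 0.815 in neuron-like cells, 1.00 in microglia-like cells and 1.03 in oligodendrocyte lineage-like cells, and 0.875 in cycling-like cells. Single genes weigh on this balance. Rplp1, of the large subunit, had 503 UMIs in microglia-like cells and Rps26, of the small subunit, had 386, against 6649 and 13757 in cycling-like cells. The balance without these genes was not tested. Copies of Rpl14 hold a large part of its UMIs at P12, with 21483 UMIs for Rpl14-ps1 and 5482 for Rpl14, so this balance depends on how copies were counted. At P24-30 Rpl41 and Gm10076 had 43269 and 40832 UMIs (correlation 0.942 over cells), and Rplp1 and Gm10073 had 30535 and 26406 UMIs (0.940).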
